A study of Saccharomyces cerevisiae with 59 samples.

Results

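Transcripts of 10 plasma membrane amino acid permeases of the yeast Saccharomyces cerevisiae were followed in bulk RNA of amino acid starved cells: GAP1, PUT4, DIP5, AGP1, GNP1, BAP2, TAT1, HIP1, CAN1 and LYP1. The members were taken by gene name, with no measured value as a filter but with earlier results of these data known. They are 10 of the 6420 genes counted. The RNA came from a population of spheroplasts, cells whose wall had been removed with zymolyase, grown from 1 clone of the reference strain S288C. They were held in sorbitol medium without amino acids (AAS). The sample records give at least 30 min and up to 5 hours of this, and the study's methods give a shorter upper limit before manual harvest. All libraries share the strain, the wall removal and the starvation, and no unstarved bulk RNA was compared. Purified RNA went into the reactions that the study used for single cells, 10 each with 5 pg, 10 pg and 20 pg, 7 with 100 pg, 8 with 1 ng and 9 with 10 ng, with ERCC spike-in RNA scaled to the input. A further 5 libraries carry an H6P name and no amount in their labels, and they are described at the end by their values alone. A supplementary table of the study gives them amounts and another sequencing batch, which were not used here. Whether libraries of the same input trace back to different cultures is not given, so p-values describe the spread among these libraries, and that spread may be technical.

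Amino acid permeases carry amino acids from the medium into the cell with the proton gradient, and yeast sets their transcription by what it finds outside. When good nitrogen sources are lacking, the GATA factors Gln3 and Gat1 act at sites with the letters GATAAG and switch on permeases of broad range such as Gap1. When amino acids are present outside, the sensor complex of Ssy1, Ptr3 and Ssy5 (SPS) cuts the factors Stp1 and Stp2 free and turns on permeases such as Agp1, Gnp1, Bap2 and Tat1. Hip1, Can1 and Lyp1 carry the basic amino acids histidine, arginine and lysine, and Gcn4, the activator made under amino acid starvation, binds TGACTCA.

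The upstream regions were searched for these letters on both strands, in the 600 bases before each start codon of the R64 genome (RefSeq). GATAAG was found before GAP1 (5 sites), CAN1 (3 sites) and AGP1 (2 sites), while 26.7% of 6018 yeast genes held at least 1 site and 4.90% held at least 2. TGACTC, the core of the Gcn4 motif, was found before AGP1, BAP2, HIP1 and CAN1, against 15.3% of all genes, and the full TGACTCA before HIP1 and CAN1, against 4.70%. Each TGACTCA also counts as a TGACTC. The windows of PUT4, DIP5, GNP1, TAT1 and LYP1 held none of the 3 motifs. The matches depend on the window. From 250 bases before to 50 after the start codon, GATAAG was found at GAP1 alone, beside 14.6% of all genes. There TGACTC was found at BAP2 and HIP1 (7.96% of all genes) and TGACTCA at HIP1 (2.72%). The stretches below carry most of the sites in the 600 bases and are shown as the letters behind these matches. They read 5′ to 3′ along each gene's own strand, with each motif found, or its reverse complement, in capitals. A match is a description of the letters only. The stretch of GAP1 lies at chrXI:514584-514836 (plus strand), that of AGP1 at chrIII:78157-78366 (minus strand), that of CAN1 at chrV:33718-33831 (minus strand) and that of HIP1 at chrVII:880364-880390 (plus strand).
GAP1: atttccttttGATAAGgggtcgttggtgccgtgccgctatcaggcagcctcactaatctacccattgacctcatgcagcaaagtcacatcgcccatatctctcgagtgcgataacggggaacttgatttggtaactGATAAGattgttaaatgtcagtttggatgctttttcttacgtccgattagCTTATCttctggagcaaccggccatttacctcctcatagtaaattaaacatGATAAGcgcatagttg
AGP1: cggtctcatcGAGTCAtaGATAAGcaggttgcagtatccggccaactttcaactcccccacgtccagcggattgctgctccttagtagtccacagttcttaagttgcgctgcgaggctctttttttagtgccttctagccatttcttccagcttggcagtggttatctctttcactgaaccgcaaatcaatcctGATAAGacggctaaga
CAN1: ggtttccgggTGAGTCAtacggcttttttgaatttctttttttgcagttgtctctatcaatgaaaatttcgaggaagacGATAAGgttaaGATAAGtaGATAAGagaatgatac
HIP1: tatcgctatcTGACTCAttagtacaca

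The permeases are sequence relatives, so the chance that reads of 1 gene were given to another was checked on the genome. No stretch of 100 bases of any of the 10 coding regions occurred a further time in the genome, and no other annotated gene overlapped a member. The longest exact runs shared with another gene were 47 bases, between AGP1 and GNP1 and between LYP1 and ALP1, which lies nearby on chromosome XIV and encodes a further permease of basic amino acids. They are shown as the places where the members are hardest to separate. The AGP1 run lies at chrIII:77213-77259 and the LYP1 run at chrXIV:139483-139529. For the other members the longest run was 26 bases or fewer. BAP2 and TAT1 stand in tandem on the minus strand of chromosome II with 883 bases between them.
AGP1 and GNP1: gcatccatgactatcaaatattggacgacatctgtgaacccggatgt
LYP1 and ALP1: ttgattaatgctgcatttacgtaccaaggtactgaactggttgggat

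Gene totals of the 54 libraries with an amount ran from 290434 to 2452562 counts (median 1272229.5), and CPM below are counts scaled to a library total of 1000000. A filter of at least 5 counts in 20% or more of these libraries kept 4182 genes, and the share of them with 5 counts in a single library was 34.5% ± 15.3 (SD, n = 10) at 5 pg and 66.6% ± 13.5 (SD, n = 9) at 10 ng. The mean coding length of a counted read was 1477 ± 65.8 bases (SD, n = 10) at 5 pg, 1318 ± 139 (SD, n = 7) at 100 pg, 1222 ± 107 (SD, n = 8) at 1 ng and 1057 ± 55.3 (SD, n = 9) at 10 ng, so long genes took more of the counts at low input. The permeases have coding regions of 1773 to 1992 bases, the shortest being longer than 72.2% of all coding genes. Libraries numbered 1 to 4 and those numbered above 4 within an amount differed, as in GAP1 at 5 pg with a mean of 184 CPM in the 4 lower and 674 CPM in the 6 higher numbers, and values within each set are given where the call depends on them. The cells read as alpha cells, since the 4 alpha-cell markers held 208001 counts in the 54 libraries, the 7 a-cell markers 564 and the 8 sporulation markers 5769.

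Together the 10 permeases took more of the library at low input than at high input. Their summed level was 2972 ± 2608 CPM (SD, n = 10) at 5 pg, 2508 ± 849.7 (SD, n = 10) at 10 pg, 1937 ± 806 (SD, n = 10) at 20 pg, 1933 ± 608 (SD, n = 7) at 100 pg, 1214 ± 611 (SD, n = 8) at 1 ng and 452 ± 154 CPM (SD, n = 9) at 10 ng. The 5 pg libraries ran from 32.1 to 7365 CPM and so reached both below and above every 10 ng library, which ran from 287 to 736 CPM. The groups differ by label in the amount of purified RNA put in, not in the treatment of the cells. For the level at any 1 amount, more cells with a transcript and more transcript in each cell cannot be told apart in bulk RNA. At 10 ng, GAP1 was the highest permease in 9 of 9 libraries, and at 5 pg in 5 of 10, with HIP1 leading in 2, LYP1 in 2 and BAP2 in 1.

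**Figure D1:**
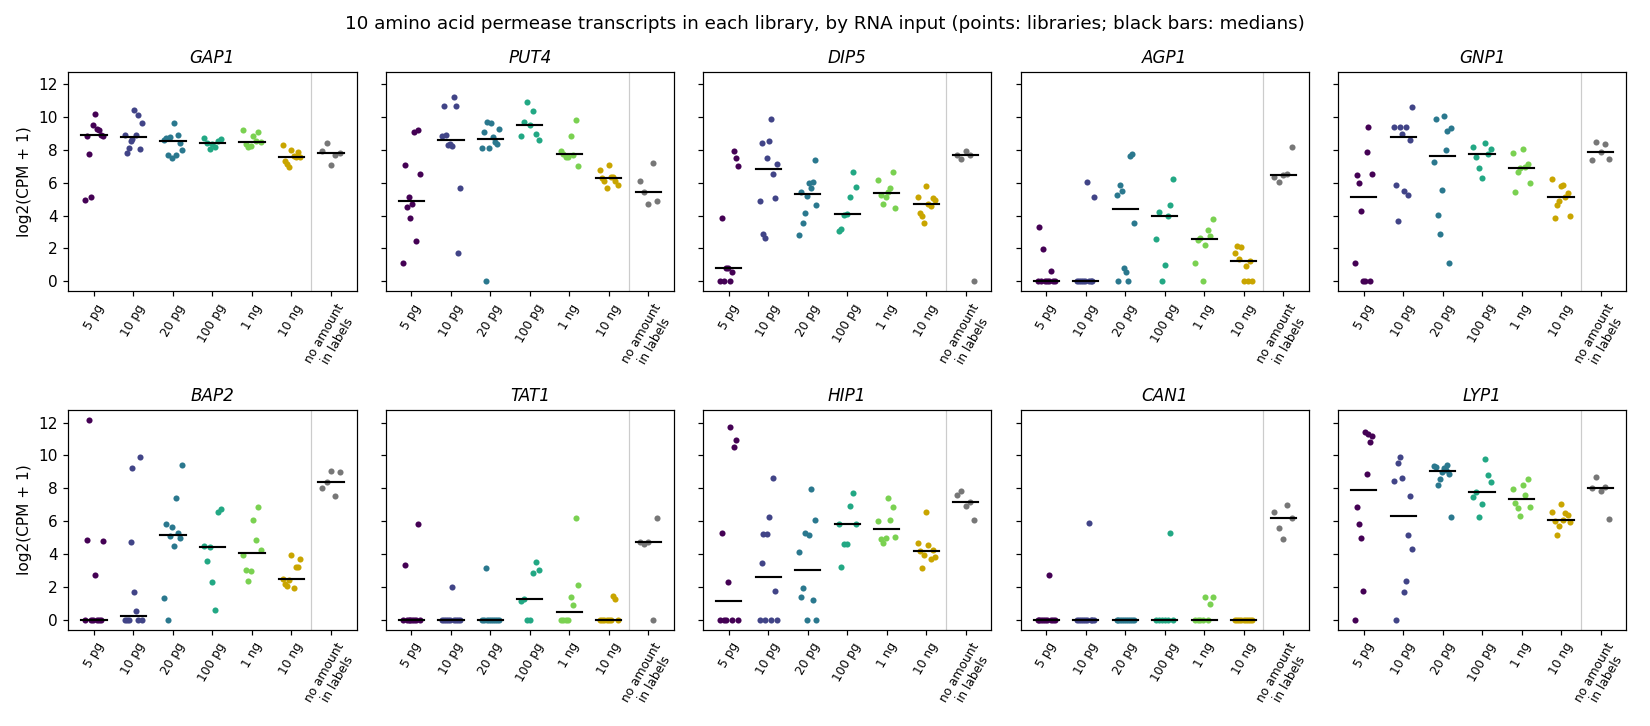
Level of each permease transcript as log2(CPM + 1) on the vertical axis, by RNA input, with the 5 libraries without an amount at the right. Points are libraries and black bars are medians. GAP1 has counts in every library, whereas CAN1 has a median of 0 at all 6 amounts and lies between 28.8 and 124 CPM in the 5 libraries without an amount.

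Scaled by coding length (TPM, counts per base of coding length scaled to the same sum in every library), GAP1 was the most abundant permease at 10 ng with 93.0 ± 30.1 TPM (SD, n = 9). PUT4 followed with 36 ± 13.2 TPM and LYP1 with 34.2 ± 14.3 TPM, a pair that differed by less than its spread. GNP1 had 16.4 ± 9.25 TPM, DIP5 12.4 ± 6.62 TPM and HIP1 11.8 ± 13.6 TPM, and these neighbours also lay within each other's spread. BAP2 had 3.11 ± 1.97 TPM, AGP1 0.625 ± 0.586 TPM and TAT1 0.151 ± 0.303 TPM, and CAN1 had no count. At 1 ng, GAP1 still led with 223 ± 77.5 TPM (SD, n = 8), with PUT4 at 178 ± 163 TPM and LYP1 at 109 ± 69.1 TPM. At 100 pg, PUT4 had 521 ± 341 TPM (SD, n = 7), above GAP1 with 209 ± 30.0 TPM.

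Among the permeases under nitrogen control, GAP1 (YKR039W, chrXI:515063-516871, plus strand), the general amino acid permease, had counts in all 54 libraries. Its level at 10 ng ran from 123 to 311 CPM with a median of 193 CPM (n = 9). At 1 ng it ran from 284 to 589.7 CPM with a median of 362 CPM (n = 8). Only 1 library of the 10 ng group, replicate 1, reached the range of the 1 ng group. The 100 pg libraries were the tightest, from 264 to 419 CPM around a mean of 346 ± 58.0 CPM (SD, n = 7). The spread was widest at the lowest inputs, with 226 to 1368 CPM at 10 pg and 29.7 to 1161 CPM at 5 pg (n = 10 each), where replicates 1 and 4 fell below every other library. In order of the means, 10 pg (578 CPM), 5 pg (478 CPM), 1 ng (402 CPM), 20 pg (373 CPM) and 100 pg (346 CPM) each lay within the spread of the next, and 10 ng (199.5 ± 59.1 CPM) lay below 100 pg by more than the larger SD.

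PUT4 (YOR348C, chrXV:986899-988782, minus strand), the high-affinity proline permease, was highest at 100 pg. It ran from 388 to 1952 CPM there with a median of 736 CPM (n = 7). At 1 ng it ran from 130.5 to 920.5 CPM with a median of 214 CPM (n = 8), and at 10 ng from 49.8 to 133 CPM with a median of 75.7 CPM (n = 9). All 7 libraries at 100 pg lay above all 9 at 10 ng, and the highest 10 ng library lay just inside the 1 ng range. At 10 pg PUT4 ran from 2.30 to 2367 CPM and at 20 pg from 0 to 847 CPM. At 5 pg it was low in most libraries, with a median of 29.3 CPM and 586 CPM in the highest. DIP5 (YPL265W, chrXVI:41043-42869, plus strand), the permease of glutamate and aspartate, had at least 5 counts in every library at 100 pg and above, at a median of 15.9 CPM at 100 pg, 40.1 CPM at 1 ng and 25.0 CPM at 10 ng. At 10 pg it ran from 5.14 to 928 CPM (median 116 CPM). At 5 pg it had at least 5 counts in 4 of 10 libraries, with replicates 8, 9 and 10 between 130.0 and 239 CPM and the other 7 at 13.4 CPM or less.

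Of the permeases that the SPS sensor controls, GNP1 (YDR508C, chrIV:1466453-1468444, minus strand), a high-affinity glutamine permease, was the most abundant at 10 ng. It ran from 13.8 to 75.6 CPM at 10 ng with a median of 34.4 CPM (n = 9), and from 42.6 to 270.1 CPM at 1 ng with a median of 119 CPM (n = 8). At 100 pg it ran from 76.4 to 344 CPM, so that each 100 pg library lay above each 10 ng library. At 20 pg it ran from 1.21 to 1091 CPM, and at 5 pg it had no count in 3 of 10 libraries and 669.8 CPM in replicate 8. AGP1 (YCL025C, chrIII:76018-77919, minus strand), a low-affinity permease of broad range, was near its floor at both ends. It had 0 to 3.44 CPM at 10 ng, 0 to 12.9 CPM at 1 ng and no count in 7 of 10 libraries at 5 pg and 8 of 10 at 10 pg. At 20 pg replicates 8 and 9 held 198 and 211 CPM while 2 libraries held none.

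BAP2 (YBR068C, chrII:373861-375690, minus strand), a branched-chain amino acid permease, had 2.78 to 14 CPM at 10 ng with a median of 4.65 CPM (n = 9) and 4.11 to 117 CPM at 1 ng with a median of 15.9 CPM (n = 8). At 5 pg it had no count in 6 of 10 libraries, yet replicate 3 held 4542 CPM (5958 counts), and the next library held 28.4 CPM. At 10 pg replicates 5 and 9 held 599 and 955 CPM, and the others held 25.7 CPM or less. TAT1 (YBR069C, chrII:376574-378433, minus strand), a tyrosine and tryptophan permease, was absent from most libraries, with no count in 39 of 54. It held at least 5 counts in 7 libraries, the highest being 1 ng replicate 9 with 71.7 CPM and 5 pg replicate 9 with 54.7 CPM.

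Among the permeases of basic amino acids, LYP1 (YNL268W, chrXIV:138550-140385, plus strand), the lysine permease, ran from 35.3 to 129 CPM at 10 ng with a median of 64.9 CPM (n = 9) and from 78.4 to 383 CPM at 1 ng with a median of 163 CPM (n = 8). At 20 pg 9 of 10 libraries held 298 to 686 CPM and replicate 10 held 75.7 CPM. At 5 pg replicates 6, 8, 9 and 10 held 2755, 2569, 1819 and 2366 CPM, and the other 6 ran from 0 to 469 CPM. HIP1 (YGR191W, chrVII:880420-882231, plus strand), the histidine permease, ran from 7.84 to 93.9 CPM at 10 ng with a median of 17.2 CPM (n = 9) and from 24.6 to 170.4 CPM at 1 ng with a median of 47.7 CPM (n = 8). At 5 pg replicates 6, 8 and 9 held 3419, 1474 and 1950 CPM, and the other 7 held 37.3 CPM or less. The same 3 libraries were thus among the 4 highest for LYP1. The end of HIP1 lies 580 bases from the end of TDH3, an abundant glycolytic gene on the other strand, with no overlap.

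CAN1 (YEL063C, chrV:31694-33466, minus strand), the arginine permease, was nearly absent. It had no count in any of the 9 libraries at 10 ng, which allows up to 0.351 CPM over the group, or of the 10 at 20 pg, which allows up to 0.219 CPM. These limits take 3 counts as the most that a count of 0 allows and cover counting error only, since PCR copies are not separate molecules. CAN1 had at least 5 counts in replicate 7 at 5 pg (12 counts, 5.62 CPM), replicate 7 at 10 pg (141 counts, 57.5 CPM) and replicate 7 at 100 pg (70 counts, 37.8 CPM). A further 3 libraries at 1 ng held 6 counts between them. The labels do not tie libraries of the same number to each other.

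**Figure D2:**
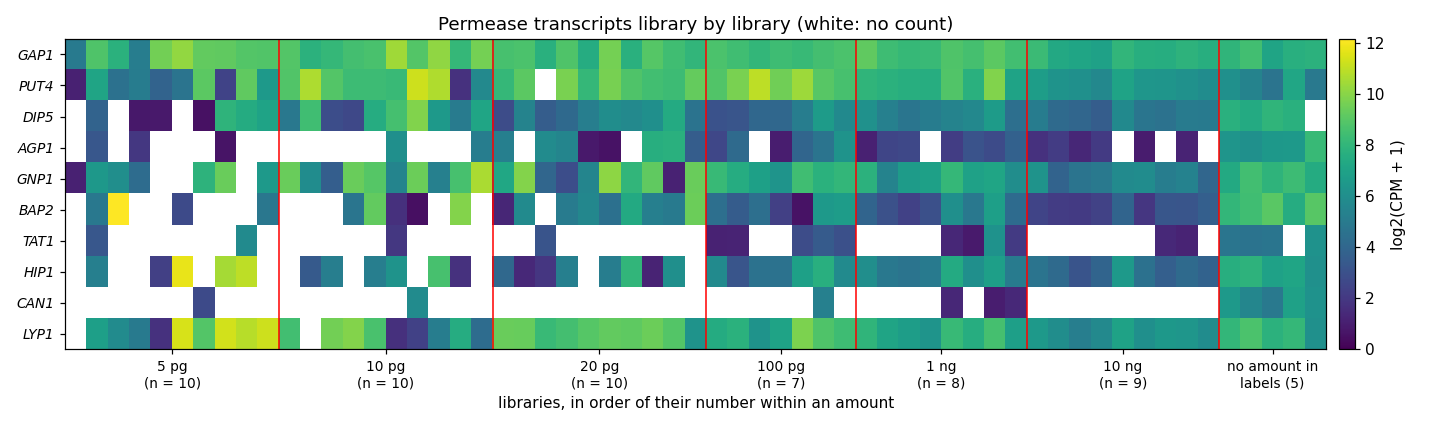
Level of the 10 permease transcripts in all 59 libraries as log2(CPM + 1), with libraries in columns grouped by RNA input and white for no count. White cells are common at 5 pg and 10 pg beside single bright cells such as BAP2 in 5 pg replicate 3 (4542 CPM), while GAP1 is filled throughout.

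With all counts, detection of the family widened with input up to 100 pg, as detection of all genes did. A library held at least 5 counts of 5.00 ± 2.11 of the 10 permeases (SD, n = 10) at 5 pg, 5.60 ± 0.843 (SD, n = 10) at 10 pg, 6.80 ± 0.632 (SD, n = 10) at 20 pg, 7.86 ± 1.35 (SD, n = 7) at 100 pg, 7.50 ± 0.926 (SD, n = 8) at 1 ng and 6.33 ± 0.707 (SD, n = 9) at 10 ng. Libraries at 5 pg ranged from 1 permease (GAP1 alone, replicate 1) to 9 (replicate 2, which also held 75.2% of the 4182 genes). Brought to the depth of the smallest library, 290434 counts, detection averaged 4.19 ± 1.86 at 5 pg, 5.27 ± 0.893 at 10 pg, 6.16 ± 0.992 at 20 pg, 6.51 ± 1.49 at 100 pg, 6.61 ± 0.737 at 1 ng and 5.28 ± 0.664 at 10 ng. In the same order of amounts, the mean share of the 4182 genes with 5 counts was 34.5%, 49.1%, 66.6%, 69.2%, 74.5% and 66.6%. At the depth of the smallest library it was 26.0%, 41.6%, 52.5%, 51.0%, 51.8% and 45.7%. These numbers are a description with no test. Neighbouring amounts overlapped in every case.

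**Figure D3:**
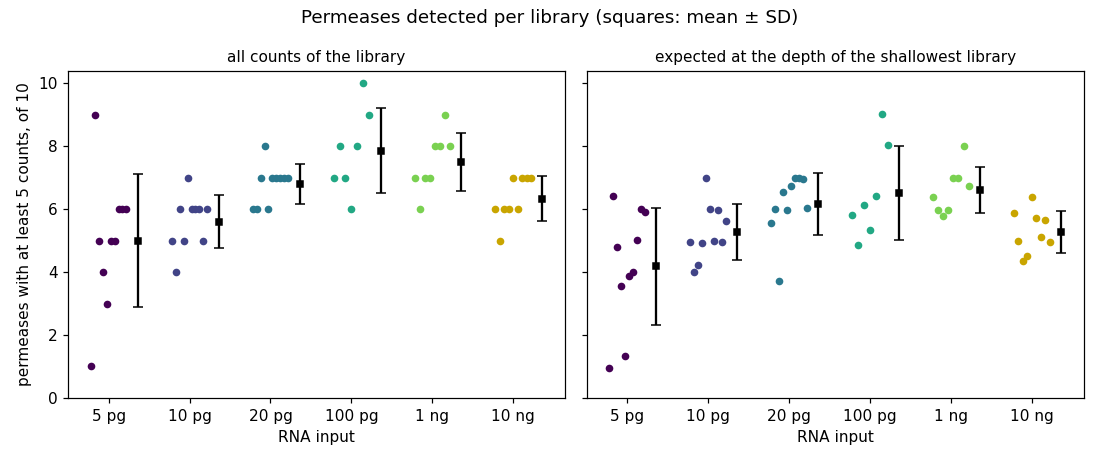
Number of the 10 permeases with at least 5 counts in each library, by RNA input, with all counts (left) and as computed for 290434 counts (right). Points are libraries, and squares with bars are the mean ± SD, which runs from 5.00 at 5 pg to 7.86 at 100 pg with all counts.

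Libraries of the same input agreed less at low input. The 8 permeases that passed the count filter over the 54 libraries (all but TAT1 and CAN1) had a median coefficient of variation of 168% at 5 pg and 51.5% at 10 ng, beside 232% and 56.0% over all 4182 genes. GAP1 had the smallest coefficient of variation of the 8 at 5 amounts, and at 20 pg LYP1 was below it (39.4% against 49.1%). The share of all genes with a smaller value than GAP1 was 1.13% at 5 pg, 4.79% at 10 pg, 4.86% at 20 pg, 0.287% at 100 pg, 6.58% at 1 ng and 21.0% at 10 ng.

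The comparison of 1 ng with 10 ng asked which permeases differed between the highest inputs, where libraries were most alike. Of the 8 permeases tested, 6 passed the quasi-likelihood test of edgeR, while 36.7% of all 3927 genes tested passed, and all 6 were higher at 1 ng, as were 20.8% of all genes. Each change is a log2 ratio, lower input to higher input, less the median of all genes tested, which was 0.23 here, and 0.51 when libraries were scaled by their totals alone. Called genes are counted as higher or lower by their side of that median, here and in the other comparisons. BAP2 was higher by 1.57 ± 0.47 (SE, edgeR adjusted p = 0.00709), PUT4 by 1.39 ± 0.23 (adjusted p = 0.000114) and GNP1 by 1.30 ± 0.31 (adjusted p = 0.00149). HIP1 was higher by 0.94 ± 0.35 (edgeR adjusted p = 0.0151), LYP1 by 0.85 ± 0.21 (adjusted p = 0.00094) and GAP1 by 0.54 ± 0.17 (adjusted p = 0.00256). The change was 1.38 ± 0.77 for AGP1 (edgeR adjusted p = 0.0994) and 0.35 ± 0.27 for DIP5 (adjusted p = 0.0868), neither past 0.05. The median over the 8 was 1.12. The SE and the adjusted p refer to the change before the median was subtracted. All 6 passed in each of the 17 fits that left out 1 library.

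These calls depended on how coding length and spread were handled. When the trend of each library with coding length was entered as an offset, a choice made after the data were seen, 1 of the 8 permeases passed, PUT4 at 0.77 (edgeR adjusted p = 0.00656), while 10.1% of all 3924 genes with a length passed. The others then ranged from -0.17 for DIP5 to 0.90 for AGP1 (edgeR adjusted p = 0.082 to 0.899). PUT4 was also the 1 permease that passed in the libraries numbered above 4 alone (1.34, edgeR adjusted p = 0.0475, 4 against 5 libraries), a fit that called 83 of 4598 genes. There GAP1 had 0.22, LYP1 0.65, HIP1 0.83, GNP1 1.00 and BAP2 1.72 (edgeR adjusted p = 0.0544 to 0.152). In the libraries numbered 1 to 4 alone, where 870 of 3347 genes passed, 6 of 7 permeases did, with DIP5 (0.98, edgeR adjusted p = 0.0212) in place of BAP2 (0.82, adjusted p = 0.315). When all 54 libraries shared one estimate of the spread, 0 of 8 permeases and 0 of all 4182 genes passed (edgeR adjusted p = 0.986 for each of the 6).

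**Figure D4:**
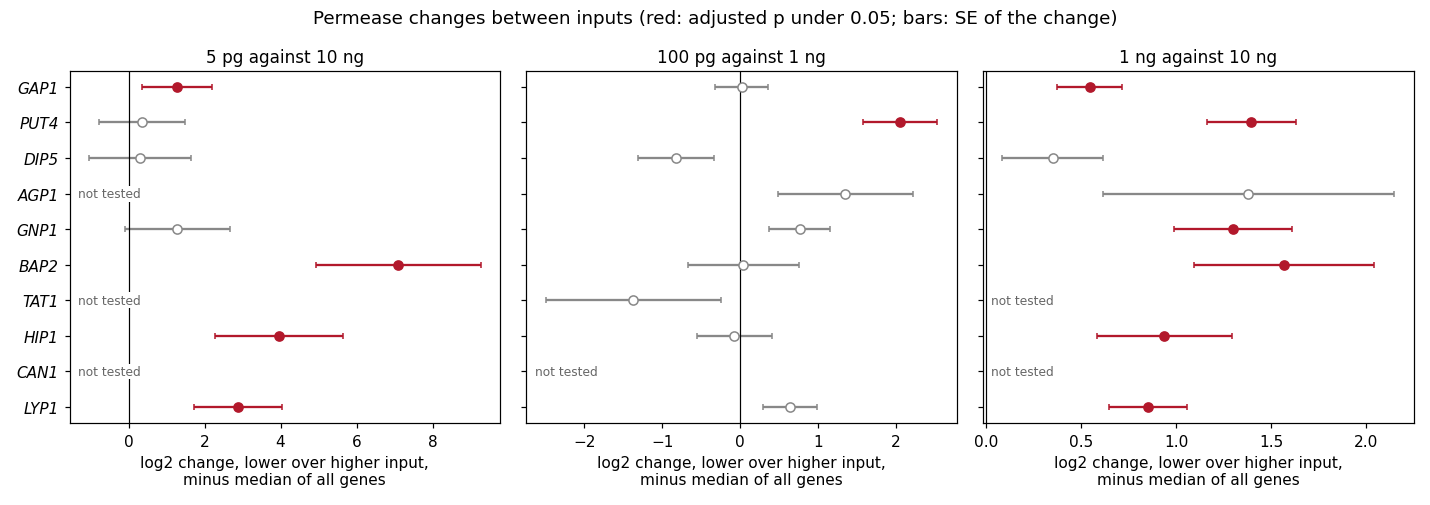
Change of each permease on the log2 scale, lower over higher input minus the median of all genes, for 3 comparisons. Points are edgeR estimates, and the horizontal scales differ between panels. Bars (SE) and red (adjusted p under 0.05) refer to the change before the median was subtracted. At 1 ng against 10 ng all 8 tested permeases lie above 0, from 0.35 to 1.57.

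Between 100 pg and 1 ng, 1 of 9 permeases tested passed, beside 6.87% of all 4670 genes, and it was higher at 100 pg, as were 3.45% of all genes. PUT4 was higher at 100 pg by 2.05 ± 0.48 (SE, edgeR adjusted p = 0.00636), and by 1.84 (adjusted p = 0.0188) with the coding-length offset. It passed in each of the 15 fits that left out 1 library. The change was 2.89 (edgeR adjusted p = 4.1e-05) in the libraries numbered 1 to 4 and 0.57 (adjusted p = 0.99, 3 against 4 libraries) in those above 4. The other 8 ranged from -1.37 for TAT1 to 1.35 for AGP1. Without 1 ng replicate 9 the change of TAT1 was 1.38 (edgeR adjusted p = 0.288). Among them GAP1, with 0.02 ± 0.34 (edgeR adjusted p = 0.858), had the smallest change.

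Across the whole range, 5 pg against 10 ng, 4 of 7 permeases tested passed, beside 30.6% of all 3492 genes. All 4 were higher at 5 pg by more than the median of all genes. Of all genes, 23% were called and lay above that median. The median of all genes was 1.64 in this comparison and 0.38 with scaling by library totals. The SE and adjusted p refer to the change before the 1.64 was subtracted, so they do not test the changes below against 0. With scaling by library totals BAP2, HIP1 and LYP1 passed, beside 509 of 3492 genes, and GAP1 did not. BAP2 was higher by 7.10 ± 2.17 (SE, edgeR adjusted p = 0.0085), HIP1 by 3.97 ± 1.69 (adjusted p = 0.0182), LYP1 by 2.88 ± 1.16 (adjusted p = 0.00899) and GAP1 by 1.28 ± 0.91 (adjusted p = 0.021). The BAP2 call rests on 5 pg replicate 3, for without that library the change was -1.03 (edgeR adjusted p = 0.975), and DESeq2 gave 0.51 over all libraries (adjusted p = 0.999). GAP1 lost its call in 5 fits, those without 5 pg replicate 3 or 5 or 10 ng replicate 2, 9 or 10 (edgeR adjusted p up to 0.106). HIP1 and LYP1 passed in each of 19 fits that left out 1 library (edgeR adjusted p up to 0.0482 and 0.0252). In the libraries numbered 1 to 4 the change of HIP1 was -0.76, of LYP1 0.87 and of GAP1 1.02 (edgeR adjusted p = 0.723 to 0.78), and 0 of 7 permeases and 0 of all 3305 genes passed. BAP2 had 10.1 in the libraries numbered 1 to 4 and -1.58 in those above 4 (edgeR adjusted p = 0.0687 and 0.7). The libraries above 4, which include replicates 6, 8 and 9, gave 1 call, LYP1 (3.74, edgeR adjusted p = 0.0124), with 633 of 3390 genes called, and HIP1 had 4.72 and GAP1 2.05 there (adjusted p = 0.0892 and 0.0555). With the coding-length offset the same 4 passed, beside 794 of 3489 genes. With the share of detected genes as a covariate 0 of 7 did, in a fit that called 35 of 3492 genes.

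At the steps between the lower inputs, no permease passed when only the compared libraries were fitted. From 5 pg to 10 pg 0 of 7 permeases passed (0% of all 3443 genes), with 1 at an unadjusted p under 0.05, and 0 passed with DESeq2 and with limma. In the joint fit of all 54 libraries, BAP2 and HIP1 passed at this step, as did 1036 of 4182 genes. From 10 pg to 20 pg 0 of 8 passed (0.0456% of all 4388 genes), with 1 at an unadjusted p under 0.05, DIP5. With DESeq2 DIP5 alone of the 8 passed (2.50, adjusted p = 0.0357), beside 116 of 4388 genes, and 0 passed with limma. From 20 pg to 100 pg 0 of 9 passed (0% of all 4546 genes), with 1 at an unadjusted p under 0.05, PUT4 (-2.07 ± 0.72, edgeR adjusted p = 0.918), and 0 passed with DESeq2 and with limma. Over any of the 6 amounts in a joint fit, 4 of 8 permeases passed, beside 36.7% of all 4182 genes. They were BAP2 (edgeR adjusted p = 0.000191), HIP1 (adjusted p = 0.00436), PUT4 (adjusted p = 0.00575) and AGP1 (adjusted p = 0.0312). This test was not repeated with single libraries left out. At 5 pg BAP2 had a median of 0 CPM and a maximum of 4542 CPM, and HIP1 a median of 1.97 CPM and a maximum of 3419 CPM. The joint fit shares one estimate of the spread over amounts that differed in spread, and it called 0 of 4182 genes at 1 ng against 10 ng.

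Other genes of amino acid uptake gave the context. Of 9 further plasma membrane amino acid permeases, SAM3, the S-adenosylmethionine permease, was the most abundant at 10 ng with 442 ± 102 TPM (SD, n = 9), above every one of the 10 members, and it was 0.07 (edgeR adjusted p = 0.164) at 1 ng against 10 ng. In that comparison 3 of the 6 tested were higher at 1 ng: MMP1, which carries S-methylmethionine, by 1.09, AGP3 by 0.93 and MUP1, the high-affinity methionine permease, by 0.52 (edgeR adjusted p = 0.0028 to 0.0243). Of all genes, 36.7% passed in that comparison and 20.8% were called higher at 1 ng. With the coding-length offset 0 of these 6 passed, beside 10.1% of all genes.

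Genes that place and sense permeases were tested in the same comparison, where 36.7% of all genes passed. Of 7 tested genes of permease exit, sorting and ubiquitination, 5 were higher at 1 ng: ECM21, BUL1, ALY1 and LDB19, adaptors that bring the ubiquitin ligase Rsp5 to permeases, by 2.55, 2.05, 1.61 and 1.54, and NPR1, a kinase that stabilizes Gap1 at the membrane, by 1.25. SHR3, the chaperone by which permeases leave the endoplasmic reticulum, was lower by 1.26 (edgeR adjusted p = 0.0153). Its coding region has 633 bases, against 2373 to 3354 for the 5 that were higher. The cause of these changes was not tested. With the coding-length offset 0 of the 7 passed, beside 10.1% of all genes. Of 10 tested genes of the SPS sensor and its controls, PTR3 was higher by 1.84, GRR1 by 1.54, YCK2 by 1.47 and YCK1 by 0.96 at 1 ng. PTR3, YCK1 and YCK2 passed with the offset. Of 4 tested GATA factors, GAT1 alone passed (0.97, edgeR adjusted p = 0.0102), and 0 with the offset.

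Vacuolar and other nitrogen transporters moved both ways. Of all genes, 36.7% passed at 1 ng against 10 ng, and 10.1% with the coding-length offset. Of 12 vacuolar amino acid transporters tested at 1 ng against 10 ng, AVT3 (1.2), AVT5 (1.05) and AVT4 (0.47) were higher at 1 ng, and RTC2 (-1.06) and AVT7 (-0.79) were lower. AVT7 was the most abundant of its list at 10 ng with 435 ± 97.3 TPM (SD, n = 9), and it alone of the 12 passed with the offset. Of 5 tested transporters of peptides, ammonium and other nitrogen sources, MEP3, an ammonium permease, was higher by 1.35 and DAL5, the allantoate permease, lower by 1.05 on the log2 scale. DAL5 passed with the offset as well. MEP2, the high-affinity ammonium permease, was the most abundant of this list with 417 ± 130.1 TPM and had a change of -0.13 (edgeR adjusted p = 0.745).

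At 5 pg against 10 ng the genes of these lists that passed were all higher at 5 pg, beside 30.6% of all genes called. They were ECM21 (6.16) and RSP5 (4.61), the ubiquitin ligase itself, among 7 sorting genes, AGP2 (6.26) among 6 further permeases, and ASI3 (4.66) and YCK2 (3.85) among 9 genes of the sensor. AVT4 (3.36) and AVT3 (2.65) passed among 11 vacuolar transporters, and OPT1 (3.73), MEP3 (3.08) and MEP2 (1.09) among 5 of peptides and ammonium, while 0 of 4 GATA factors passed. AVT3 and OPT1 did not pass with the coding-length offset. At 100 pg against 1 ng LDB19 (2.19), PTR3 (2.07), AVT3 (1.62) and AVT6 (1.04) were higher at 100 pg, beside 6.87% of all genes called, and of these LDB19 and PTR3 passed with the offset.

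The genes whose level followed each permease most closely were found over the 54 libraries, among 1061 other genes that had 5 or more counts in 80% or more of them. GAP1 was most like TSL1 (Spearman rho = 0.67), EFT2 (0.64) and IST2 (0.61), and PUT4 most like STP22 (0.60), HOL1 (0.57) and ALD4 (0.57). DIP5 had the closest partner of all, GRS1, the glycyl-tRNA synthetase gene, with rho = 0.87, followed by ARB1 and DAP2 (0.71 each). GNP1 was most like TNA1 (0.67), EDE1 (0.62) and STT4 (0.55), and LYP1 most like IDP1 (0.65), SSC1 (0.58) and AKL1 (0.55). The median rho over all genes was 0.04 to 0.27 for these 5 permeases. The values share library, depth and input, and they are descriptions. Among the permeases themselves the highest rho was 0.37, between GAP1 and GNP1, and the lowest -0.12, between GNP1 and HIP1.

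The 5 libraries without an amount in their labels were deeper, with 6407797 to 14337575 counts, and the mean coding length of a counted read in them was 1595 to 2128 bases. In the order H6P11, H6P12, H6P14, H6P15 and H6P16, GAP1 had 247, 349.8, 135, 204 and 222 CPM. CAN1, at 0 in most other libraries, had 91.9, 46.9, 28.8, 124 and 73.2 CPM and so was present in all 5. BAP2 had 260.0, 338, 522, 181 and 514 CPM, and AGP1 had 79.1, 66.5, 87.7, 93.4 and 294 CPM. PUT4 had 67.1, 42.8, 24.9, 147 and 28.7 CPM. DIP5 had 210.1, 173, 243 and 207 CPM in the first 4 and no count in H6P16, where TAT1 and AGP1 had their highest values. TAT1 had 25.7, 23.7, 25.8, 0 and 71.6 CPM, and HIP1 had 194, 230.0, 121, 142 and 67.3 CPM. GNP1 ran from 166 to 354 CPM and LYP1 from 68.4 to 413 CPM.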

How the data were processed

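Each deposited file gives the raw counts of 1 library for 6420 genes and 92 spike-ins. Alignment by the authors used STAR 2.5.2 and R64, and HTSeq and RSEM 1.2.31 stand in the submitters' processing notes. cDNA was primed with oligo-dT and amplified by PCR without molecular identifiers, and the kit does not mark strand. The 5 summary lines that name no gene (2.84% to 12.1% of counts) and spike-in lines entered no total. Names came from the R64 annotation (6061 genes matched), and coding lengths from its coding exons.

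Counts were tested with edgeR 4.0.16 (TMM, quasi-likelihood, genes with 5 or more counts in 20% or more of the libraries compared, Benjamini-Hochberg over all genes tested, 0.05). The SE is the change divided by the square root of F. Alternatives were library totals, DESeq2 1.42.0, limma 3.58.1 on log2(CPM + 1), no filter, a joint fit, covariates, library sets, a replicate block and leaving out each library. A coding-length offset (a loess trend of log2(CPM + 1) per library) was added after seeing the data, and it was centred per library after a first, uncentred form had shifted the median of all genes. The tests were checked on simulated data, where most planted changes were found at 1 ng against 10 ng and few at 5 pg against 10 ng or over any amount. No 2 libraries of an amount agreed within sampling noise. R 4.3.3, Python 3.11.15, pandas 2.3.3 and scipy 1.17.1 were used.

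The members and lists were chosen with earlier results of these data known. Named were all 10 members, listed genes that passed a comparison or led their list by TPM at 10 ng, and for each permease with at least 5 counts in 80% of libraries the 3 genes with the highest Spearman rho of CPM.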

Additional observations from a re-analysis of the deposited data

Results flagged for a closer look

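Among 58 sets of values (a permease at an amount), 20 held a library whose gap to its nearest neighbour was large for the range of the set (Dixon's criterion). The criterion flags about 1 in 20 sets of normally spread values by chance. These CPM are skewed to high values, so that rate does not apply to them. Sets made up mostly of zeros are flagged by any single library with counts. The values are given without an explanation. At 5 pg they were BAP2 in replicate 3 (4542 CPM), GNP1 in replicate 8 (669.8 CPM), TAT1 in replicate 9 (54.7 CPM), AGP1 in replicate 2 (8.95 CPM) and CAN1 in replicate 7 (5.62 CPM). At 10 pg they were GNP1 in replicate 10 (1577 CPM), DIP5 in replicate 7 (928 CPM), HIP1 in replicate 8 (389 CPM), CAN1 in replicate 7 (57.5 CPM) and TAT1 in replicate 6 (2.89 CPM). At 20 pg they were GAP1 in replicate 6 (793 CPM), BAP2 in replicate 10 (679 CPM), HIP1 in replicate 7 (252 CPM), DIP5 in replicate 9 (169 CPM) and TAT1 in replicate 3 (7.97 CPM). At 100 pg they were AGP1 in replicate 10 (73.5 CPM) and CAN1 in replicate 7 (37.8 CPM). At 1 ng they were PUT4 (920.5 CPM) and TAT1 (71.7 CPM), both in replicate 9, and at 10 ng HIP1 in replicate 5 (93.9 CPM).

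In the 5 libraries that entered no comparison, the permeases that failed the count filter over the other 54 had counts above the limit that a count of 0 allows, CAN1 in all 5 and TAT1 in 4. CAN1 ran from 28.8 CPM (283 counts) to 124 CPM (1743 counts). TAT1 had no count in H6P15, 23.7 to 25.8 CPM in 3 libraries and 71.6 CPM (1026 counts) in H6P16.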

How the results depend on the processing

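Leaving out 1 library at a time, the permeases called numbered 2 to 4 at 5 pg against 10 ng (2 without 5 pg replicate 3), 1 at 100 pg against 1 ng and 6 to 7 at 1 ng against 10 ng. At 5 pg against 10 ng the 4 calls became 0 with limma, with the detection share as covariate, in the libraries numbered 1 to 4 and with the replicate block, and 1 in the libraries above 4 and with the number set as covariate. BAP2 reversed in the libraries above 4 (-1.58) and, among the fits that left out 1 library (-1.03 to 7.55), without 5 pg replicate 3, and HIP1 reversed in those numbered 1 to 4 (-0.76). The joint fit over all 54 libraries called 2 permeases at 5 pg against 10 pg, beside 1036 of 4182 genes. It called 0 at 100 pg against 1 ng (28 of 4182 genes) and 0 at 1 ng against 10 ng (0 of 4182 genes). DESeq2 called 1 at 10 pg against 20 pg, beside 116 of 4388 genes. At 100 pg against 1 ng the call became 0 with the detection share (216 of 4670 genes) and in the libraries above 4 (0 of 4946 genes). At 1 ng against 10 ng the 6 calls became 1 in the libraries above 4 (83 of 4598 genes) and 1 with the coding-length offset (395 of 3924 genes). Over any amount 4 of 8 permeases and 1535 of 4182 genes were called. With no filter these were 9 of 10 permeases and 3211 of 5904 genes, and with the replicate block 2 of 8 and 768 of 4182. The cause was not tested.

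Replicate numbers were not treated as pairs, as no comparison had every same-numbered pair correlated above 0.1 and no label ties them. At 5 pg against 10 ng 0 of 9 pairs lay above 0.1 and 2 of 18 libraries were closest to their own number. At 100 pg against 1 ng these were 6 of 7 pairs and 10 of 14 libraries, and the replicate block kept the 1 call. At 1 ng against 10 ng they were 6 of 8 pairs and 10 of 16 libraries, and the replicate block kept 6 calls. Pairing itself was not tested. With at least 1 count, 7.50 permeases were detected at 20 pg, 8.75 at 1 ng and 7.89 at 10 ng. Thinned to 72608 counts, detection was 4.10 at 10 pg, 4.50 at 20 pg, 4.82 at 100 pg, 4.66 at 1 ng and 2.57 at 10 ng. CAN1, TAT1 and AGP1 had 5 counts in 3, 7 and 18 of 54 libraries.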
